A study of Mus musculus with 22 samples.

Results

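H3K27ac regions that appeared or disappeared between 2 h and 6 h of GATA1 activation were defined from 4 peak lists of G1ER cells. The lists were merged into 21513 regions wherever peaks touched. A region was gained when both lists at 6 h and neither list at 2 h held a peak in it, and lost when the reverse was true. Of all regions, 404 (1.88%) were gained and 238 (1.11%) were lost. These are the shares of all merged regions that the rule takes, so they describe the choice of members and nothing is read from them.

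G1ER (G1E-ER4) is a single subclone of G1E, a mouse erythroid progenitor line derived from *Gata1*-null embryonic stem cells. It carries GATA1 fused to the ligand-binding domain of the estrogen receptor, so β-estradiol turns GATA1 on. All groups share the *Gata1* deletion and the GATA1-ER transgene, and the line was grown with stem cell factor and erythropoietin. ChIP-seq with an H3K27ac antibody gave 2 replicate lists at 2 h, 2 at 6 h, and 2 each at 0 h (untreated), 12 h and 24 h, among 22 lists in the whole series. The lists at 0, 12 and 24 h, the 10 lists for H3K4me3, and the CTCF lists at 0 h and 24 h (1 each) were not used to choose members. The study's methods describe the pair of replicates at each time as independent experiments. Each list holds peak positions with a score. Read counts are not part of the lists, and depth is therefore unknown. In bulk chromatin, fewer cells with the mark and less mark per cell cannot be told apart.

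H3K27ac is acetylation of lysine 27 of histone H3, placed mainly by p300 and CBP at active enhancers and promoters. GATA1 is the zinc finger factor that drives erythroid maturation. It binds GATA hexamers, often beside TAL1 at the CTG of an E-box, recruits coactivators to erythroid genes, and represses progenitor and mast cell genes such as *Kit* and *Gata2*.

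The following GRCm38 sequences show GATA hexamers, or the TAL1-GATA composite, in 4 gained and 3 lost regions. Capitals mark the match, and each sequence is read 5′ to 3′ on the strand given. The gained examples near *Kit* (chr5:75554153-75554238, plus strand) and *Ank1* (chr8:23054112-23054197, plus) stand for genes of the red cell and mast cell lists. Those near *Nuggc* (chr14:65626774-65626859, minus) and *Nxpe4* (chr9:48361720-48361805, minus) lie in the highest-scoring gained regions. Among lost regions, *Tmcc2* (chr1:132380515-132380610, plus) and *Zfp36l2* (chr17:84147863-84147958, minus) hold the composite, a CTG and a GATAA with 8 bases between. *Tpm1* (chr9:67042286-67042371, plus) is the highest-scoring lost region.
Kit: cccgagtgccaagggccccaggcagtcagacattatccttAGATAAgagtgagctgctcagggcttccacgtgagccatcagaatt
Ank1: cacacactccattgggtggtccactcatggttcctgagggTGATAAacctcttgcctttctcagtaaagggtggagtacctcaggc
Nuggc: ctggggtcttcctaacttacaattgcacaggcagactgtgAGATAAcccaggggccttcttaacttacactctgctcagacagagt
Nxpe4: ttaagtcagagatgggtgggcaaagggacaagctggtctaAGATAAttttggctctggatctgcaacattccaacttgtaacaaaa
Tmcc2: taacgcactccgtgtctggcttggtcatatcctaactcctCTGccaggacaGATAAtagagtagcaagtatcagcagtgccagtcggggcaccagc
Zfp36l2: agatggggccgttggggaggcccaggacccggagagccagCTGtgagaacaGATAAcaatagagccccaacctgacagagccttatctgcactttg
Tpm1: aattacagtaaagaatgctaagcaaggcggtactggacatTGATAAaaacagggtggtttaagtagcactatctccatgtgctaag

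The 4 lists were alike as wholes. Lists at 2 h held 17722 and 18076 peaks and lists at 6 h held 18284 and 18333. Peaks covered 44.9 ± 1.08 Mb in the 2 h lists and 46.4 ± 0.037 Mb in the 6 h lists (mean ± SD, n = 2 lists). Both lists at 6 h lay above both lists at 2 h, but the exact two-sided permutation test gave p = 0.333 for both measures, the smallest value that 2 lists on each side allow. The Jaccard index (shared length divided by total length of a pair of lists) was 0.746 within 2 h and 0.759 within 6 h. Between the times it ranged from 0.738 to 0.757, which overlapped the values within a time.

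The check of the cell type by its markers was mixed. Among 8 erythroid and progenitor genes, a peak covered the transcription start site (TSS) of *Klf1* and *Lmo2* in all 4 lists and that of *Epor* in 1. No list had a peak at a TSS of *Tal1*, *Nfe2*, *Gfi1b*, *Zfpm1* or *Kit*, and the nearest peak to *Tal1* lay 4983 to 5792 bp away. None of 10 genes of T cells, B cells, liver, muscle, neurons or epidermis had a peak at a TSS in any of the 4 lists. Peak calls also stopped sharply at a certain length. The longest peak in each of the 10 H3K27ac lists was between 8769 and 8973 bp. The lack of a peak at a site in these lists is therefore not evidence that the mark was absent there, and its part in the gained and lost calls was not tested.

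Of the merged regions, 15017 had a peak in all 4 lists, 1662 in 3, 1756 in 2 and 3078 in 1. Of those in 2 lists, 642 were gained or lost, whereas 1114 had 1 list at each time. Near the edge of the rule, 977 regions had both lists at 6 h and 1 at 2 h, and 685 had both at 2 h and 1 at 6 h. Peaks in members scored low. Ranked within the list, their median score percentile was 11.4 for gained and 10.9 for lost regions, against 58.1 for regions in all 4 lists and 10.0 for the other 5854 variable regions. The regions just outside the rule had medians of 15.6 and 15.3, and those held by only 1 list had 6.79 at 6 h and 6.59 at 2 h. In the lists that held them, gained regions covered 343 to 10206 bp (median 947 bp) in replicate 1 and 336 to 9943 bp (median 937.5 bp) in replicate 2. Lost regions covered 276 to 8439 bp (median 967.5 bp) and 353 to 9082 bp (median 972 bp). The excess of gained over lost regions depended on the peaks used. Applied anew to peaks scoring no lower than the median of the 4 lists together, the rule gave 281 gained and 54 lost regions. Most of these 281 were not among the 404, of which 4 reached the 50th percentile in each 6 h list. The cutoff of 236.83 lay above the median scores of the 2 h lists (224.4 and 232.46). It lay below those of the 6 h lists (248.0 and 243.03), and its part in these counts was not tested. With equal numbers of top-scoring peaks the rule gave 323 and 288. Leaving out a list makes the rule easier to meet. The counts were then 804 gained and 1004 lost without replicate 1 at 2 h, 992 and 918 without replicate 2 at 2 h, 1289 and 609 without replicate 1 at 6 h, and 1210 and 560 without replicate 2 at 6 h. Lost regions thus outnumbered gained ones in 1 of these 4 settings, the one without replicate 1 at 2 h.

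Whether a region was shared, gained or lost went with its length. Of regions under 1 kb, 11.2% were in all 4 lists, rising to 92.4% of those from 2 to 4 kb and 92.5% of those from 4 to 6 kb. The share then fell to 80.2% from 6 to 8 kb and 50.6% at 8 kb and above. Gained regions made up 4.68% of regions under 1 kb, 0.319% of those from 4 to 6 kb and 3.90% of those at 8 kb and above (12 of 308). Peak scores had the same shape. In the 4 lists the median score percentile was 69.8 to 70.5 for peaks of 2 to 4 kb and 11.6 to 14.5 for peaks of 8 kb and above. Of the members, 20 gained and 17 lost regions were 6 kb or longer, and 384 gained and 221 lost regions were shorter.

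**Figure D1:**
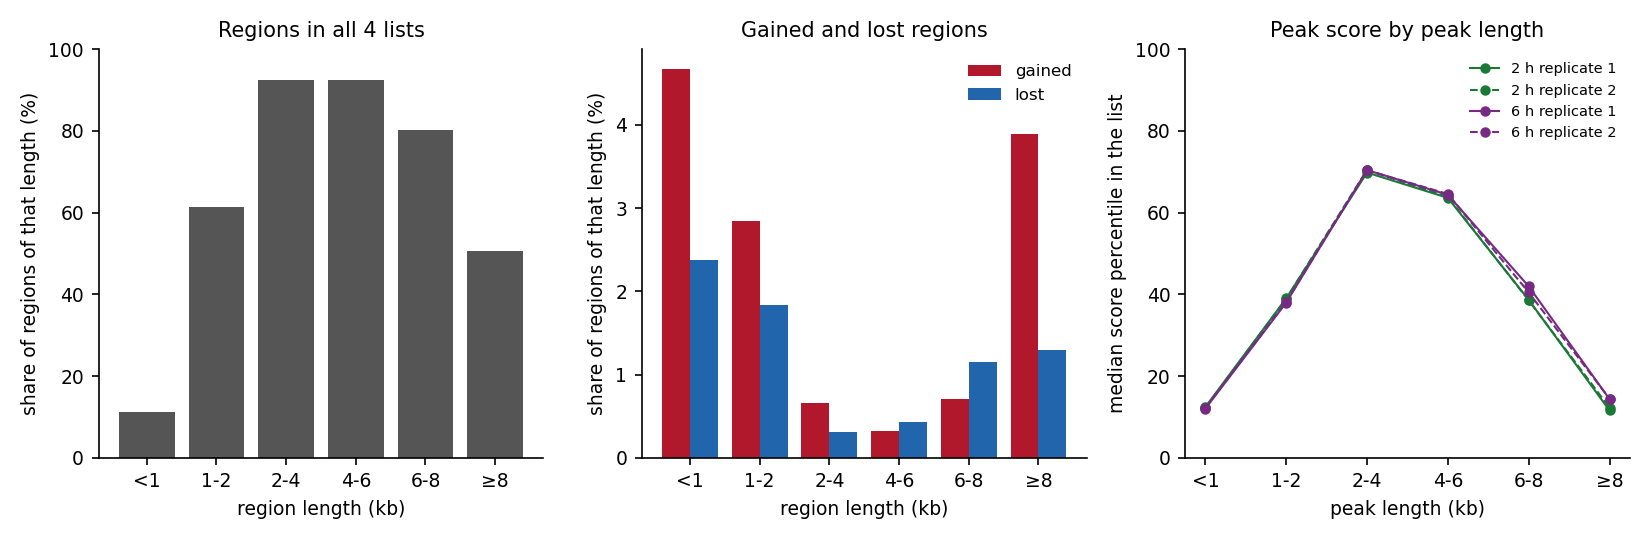
Share of merged regions with a peak in all 4 lists (left, %), share gained or lost (middle, %), both by region length in kb, and the median score percentile of peaks by peak length in kb in each list (right). Regions and peaks of 2 to 6 kb were the most often shared and the highest-scoring, and both ends of the length range were lower.

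Lists at 0, 12 and 24 h show what the same places looked like outside the 2 h to 6 h step. Gained regions had a peak in 39.1% and 34.2% of cases in the lists at 0 h, 51.2% and 51.7% after 12 h, and 48.8% and 42.3% after 24 h. Lost regions had one in 46.6% and 42.4% at 0 h, 33.2% and 36.1% after 12 h, and 28.2% and 24.4% after 24 h. The other variable regions had one in 38.7% and 37.5% at 0 h, 39.5% and 38.6% after 12 h, and 36.1% and 32.3% after 24 h, so that these too were lowest at 24 h. Of the other variable regions, 3078 had a peak in only 1 of the 4 lists at 2 h and 6 h, whereas members had 2. For gained regions both lists at 12 h and at 24 h lay above both at 0 h, and for lost regions both lay below. Over the 6 lists the share of lost regions with a peak fell with hours (Spearman's rho = -0.956, exact two-sided permutation p = 0.0222, Benjamini-Hochberg adjusted p = 0.0444 over 2 trends, and Pearson's r = -0.970, exact permutation p = 0.0222, adjusted p = 0.0444). The share of gained regions did not pass (rho = 0.478, exact permutation p = 0.4, and r = 0.556, exact permutation p = 0.289). The lists at 0 h and 24 h are equally far from the middle time. With the 24 h lists left out, r was -0.939 for lost regions, and with the 0 h lists left out it was -0.928 (exact permutation p = 0.333 for both, the smallest that 4 lists in 2 pairs allow). Leaving out any 1 of the 6 lists gave rho = -0.949 for lost regions (exact permutation adjusted p = 0.133). The lists then stayed in order of time, and 5 lists at these times cannot give a smaller p before adjustment, so the lost call follows from their number. With covered length in place of the share of regions, rho was -0.837 and did not pass (exact permutation adjusted p = 0.133).

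**Figure D2:**
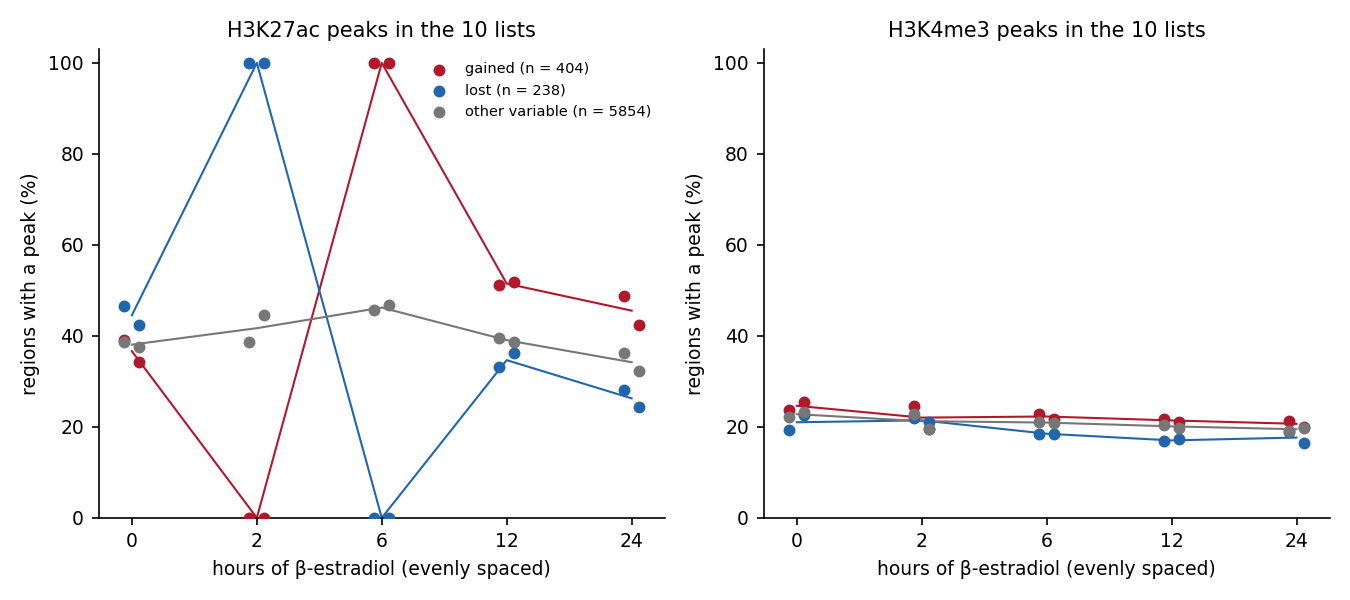
Share of gained, lost and other variable regions (%) with an H3K27ac peak (left) or an H3K4me3 peak (right) in each list, against hours of β-estradiol; points are single lists and lines join the mean of 2 lists. The H3K27ac values of 0% and 100% after 2 h and 6 h are set by the rule, whereas H3K4me3 stays between 16.4% and 25.5% for both kinds of member.

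Single regions followed several courses. Of the 404 gained regions, 190 (47.0%) had no peak at 0 h, against 48.8% of the other variable regions, 132 had a peak in 1 list and 82 (20.3%) had one in both, so that for those 82 the absence at 2 h lay between peaks at 0 h and 6 h. A lasting gain, with no peak at 0 h and peaks in all 4 lists at 12 h and 24 h, was seen in 37 gained regions (9.16%, 95% Wilson interval 6.72% to 12.4%). The same course was seen in 6 lost regions (2.52%, 1.16% to 5.39%) and in 3.11% (2.69% to 3.59%) of the other variable regions. Conversely, a peak in both lists at 0 h and in none at 12 h or 24 h was seen in 21 lost regions (8.82%, 5.84% to 13.1%), 9 gained regions (2.23%, 1.18% to 4.18%), and 4.03% (3.56% to 4.57%) of the other variable regions. These intervals cover counting error over regions only. No peak in any of the 6 other lists was seen in 40 gained (9.90%) and 44 lost regions (18.5%), against 24.0% of the other variable regions, and 18 gained and 3 lost regions had a peak in all 6. Members had a peak in 2 of the 4 lists by the rule, whereas 3078 of the other variable regions had one in only 1. Those lower-scoring regions enter each comparison made here, and their part in the differences was not tested.

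To test single members on lists that the rule did not use, limma was run on log2(covered bp + 200) of the 6 lists at 0, 12 and 24 h. It took regions with a peak in at least 2 of these lists, which kept 293 of the 404 gained and 150 of the 238 lost regions. At 24 h against 0 h, 45 gained regions were longer at an adjusted p under 0.05 (limma, Benjamini-Hochberg over 18823 regions), against a background of 4.14% of all regions tested, and 14 were shorter, against 4.44%. Of the lost regions, 26 were shorter and 9 longer. Among the other variable regions tested, 7.84% were longer and 10.3% shorter, against 15.4% and 4.78% of the gained regions tested and 6.00% and 17.3% of the lost. At 12 h against 0 h, 45 gained regions were longer (background 3.43%) and 10 shorter (background 1.96%), and 21 lost regions were shorter and 12 longer. Of the gained regions called longer at 24 h, 36 were also called at 12 h, and of the lost regions called shorter at 24 h, 21 were. Both contrasts share the lists at 0 h. A region that passed the filter only through its own later or earlier lists had to differ, so these counts describe the members and are not an independent measure of the share that changed. With peaks scoring no lower than the median of the 4 lists together, 2 gained and 8 lost regions could be tested, of which limma called 0 gained longer (also 0 at an unadjusted p under 0.05) and 5 lost shorter.

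Where all lists of a time held 0 bp, the log2 difference depends on the 200 bp added before the log and bounds nothing. Every member named here or below with a call at 24 h against 0 h held 0 bp in both lists of one of these times. It therefore passed the filter through the lists where it was high, and covered length cannot exceed the region. The p-values of these members describe how closely their lists lay together and are no independent support for a change. The clearest members of this kind were chosen after their values were seen, among those with the smallest p. At the promoter of *Tmem50a* (chromosome 4, 134912859 to 134919164), H3K27ac was absent from the 4 lists at 0 h and 2 h, covered 6290 and 3199 bp after 6 h, 6300 and 6306 bp after 12 h, and 6242 and 6306 bp after 24 h. The log2 difference of 24 h minus 0 h was 5.02 (SE 0.05, limma adjusted p = 9.4e-05). At an annotated start of *Stk11*, which encodes the kinase LKB1 (chromosome 10, 80122998 to 80125492), the lengths were 0 bp at 0 h and 2 h, 2200 and 2286 bp after 6 h, 2441 and 2495 bp after 12 h, and 2495 and 2459 bp after 24 h. *Eps15l1* and *Tmem189* had the same course, with 0 bp in the lists at 0 h and 2 h and peaks in all 6 later lists. *Emilin2* had peaks of 7937 and 8114 bp after 6 h and of 8012 and 7436 bp after 24 h, but none at 12 h. Among lost regions, a region inside *Gmpr*, the gene of guanosine monophosphate reductase (chromosome 13, 45523850 to 45531829), covered 7963 and 7417 bp at 0 h, 5826 and 7951 bp after 2 h, and 0 bp in all 6 later lists. The log2 difference was -5.30 (SE 0.15, limma adjusted p = 0.00094).

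Few members held a promoter. A protein-coding TSS lay inside 38 gained regions (9.41%, 95% Wilson interval 6.93% to 12.6%) and 21 lost regions (8.82%, 5.84% to 13.1%), close to the 9.63% of the other variable regions and far below the 53.4% of regions in all 4 lists. Regions inside gene bodies without a TSS made up 54.0% of gained and 47.1% of lost regions, and intergenic regions 36.6% and 44.1%. Outside promoters, the median distance to the nearest TSS was 19251 bp for gained and 22823 bp for lost regions. With a TSS within 2 kb counted as a promoter, the shares were 14.1% and 12.6%.

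The promoter mark H3K4me3 covered similar lengths of the members at 2 h and 6 h. Of the 404 gained regions, 282 had no H3K4me3 peak in any of the 10 lists and 61 had one in all 10. An H3K4me3 peak in any list at 2 h or 6 h was held by 26.7% of gained and 26.1% of lost regions. The other variable regions were close to this, at 25.8%. H3K4me3 was in both lists at 6 h and neither at 2 h in 3 gained regions, and the reverse held in 3 lost regions. The share of other regions with such a switch was not determined, so nothing is read from these counts. H3K4me3 peaks covered 128 and 105 kb of the gained regions at 2 h and 119 and 114 kb after 6 h, which overlapped. In lost regions they covered 98.6 and 84.3 kb after 2 h and 88.3 and 88.5 kb after 6 h, which also overlapped. Among the 38 gained regions with a TSS, 23 had H3K4me3 in all 10 lists, as had 16 of the 21 lost regions with a TSS. CTCF, a factor found at loop anchors, had a peak at 0 h in 15.8% (12.6% to 19.7%) of gained regions, 19.7% (15.2% to 25.3%) of lost regions, 17.4% of other variable regions and 29.1% of regions in all 4 lists.

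Next, members were assigned to gene lists by the nearest TSS within 50 kb. None of 5 regions near globin genes, 24 near heme synthesis genes and 25 near megakaryocyte and platelet genes was gained or lost, and 5, 21 and 16 of them were in all 4 lists. The other lists had between 0 and 3 gained and between 0 and 2 lost regions each. Of all merged regions 1.88% were gained and 1.11% lost, so lists of these sizes hold few members or none at that share and the counts say nothing particular about the genes. They are described by role, and every such member is named.

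Among red cell membrane and surface genes, 3 of 71 nearby regions were gained (4.23%) and 1 was lost (1.41%). The gained regions lay in introns of *Ank1* and *Epb41*, which encode ankyrin and protein 4.1 of the membrane skeleton, and of *Cd47*, a surface protein that signals to macrophages. At *Ank1* (chromosome 8, 23050097 to 23057068) peaks covered 6444 and 4972 bp after 6 h, 6105 bp in replicate 2 at 0 h and 6226 bp in replicate 2 at 24 h, and were absent from the other 6 lists. At *Epb41* (chromosome 4, 131982572 to 131983777) they covered 866 and 1199 bp after 6 h, 1145 bp in 1 list at 12 h and 1014 bp in 1 list at 24 h. *Cd47* had 3618 and 3161 bp after 6 h, with 1 list each at 0 h (2579 bp) and 24 h (3544 bp). None of these 3 had a peak in all lists of any other time. The lost region, inside *Tmcc2* (chromosome 1, 132379465 to 132384566), had 3606 and 5102 bp after 2 h and 0 bp in the other 8 lists. It is the region of the composite motif printed above for *Tmcc2*.

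In the list for iron uptake and storage, 1 of 37 regions was gained (2.70%) and 1 lost. The gained region lay in *Slc11a2*, the gene of the iron importer DMT1 (chromosome 15, 100390109 to 100393511). No list at 0 h or 2 h had a peak there, whereas the lengths were 2246 and 3403 bp after 6 h, 2684 and 2118 bp after 12 h, and 3038 and 2773 bp after 24 h. The rule set the values at 2 h and 6 h apart, and outside it both lists at 0 h lay below all lists at 12 h and 24 h. The log2 difference was 3.96 for 24 h minus 0 h (SE 0.16, limma adjusted p = 0.0015) and 3.69 for 12 h minus 0 h (limma adjusted p = 0.0022), with the filter passed through the later lists. Near *Pcbp1*, an iron chaperone, the lost region had peaks in both lists at 0 h (1231 and 1588 bp), 2 h (2252 and 1496 bp) and 12 h (1565 and 1602 bp), and in 1 list at 24 h (1862 bp). It was therefore absent at 6 h between lists that held it.

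Cytokine signalling and survival genes had 3 gained and 1 lost of 61 regions (4.92% and 1.64%). In an intron of *Stat3*, a signal transducer of cytokine receptors (chromosome 11, 100931054 to 100932567), the lengths were 1464 and 1400 bp after 6 h, 1349 and 1359 bp after 12 h, and 1449 and 1221 bp after 24 h, after 1404 and 0 bp at 0 h. H3K4me3 covered 1029 to 1300 bp there in all 10 lists. *Socs2*, a suppressor of cytokine signalling, had peaks of 574 and 799 bp after 6 h only, with a mean score percentile of 2.68. In *Acoxl*, 40478 bp from the TSS of *Bcl2l11*, which encodes the pro-apoptotic protein BIM, peaks covered 1596 and 811 bp after 6 h, and 1 list each at 0 h, 12 h and 24 h held a peak. The lost region lay 9991 bp from *Cish*, an inhibitor of cytokine signalling induced by STAT5 (chromosome 9, 107306903 to 107310061). It had 0 bp at 0 h, 2714 and 3159 bp after 2 h, 0 bp after 6 h, 3141 and 3062 bp after 12 h, and 2833 and 2365 bp after 24 h. Although lost by the rule, the *Cish* region was called longer at 24 h than at 0 h (log2 difference of 3.80 with SE 0.13, limma adjusted p = 0.0013). The filter was passed through the later lists, so this call is no independent support for a change.

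Of the mast cell genes, which GATA1 is known to repress, 2 of 47 regions were gained (4.26%) and 0 lost. Near *Kit*, the receptor of stem cell factor (chromosome 5, 75553624 to 75554770, 20146 bp from the TSS), peaks covered 973 and 832 bp after 6 h, 642 and 1147 bp after 12 h, and 940 and 0 bp after 24 h, after 0 bp in the 4 lists at 0 h and 2 h. The 6 h peaks had score percentiles of 16.3 and 1.1, and the difference of 24 h minus 0 h did not pass (log2 1.25, SE 0.93, limma adjusted p = 0.54). Near *Cma1*, a mast cell chymase, a region of 11149 bp was covered by 10206 and 5137 bp after 6 h and by at least 4828 bp in all 4 later lists, and 1 list at 0 h held 5014 bp. *Kit* also belongs to the promoters captured in the study, of whose 101 nearby regions 2 were gained (1.98%) and 0 lost. The other was in *Sept9*, a septin gene, with 2424 and 2134 bp after 6 h and 1 list each at 12 h and 24 h.

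Transcription factor genes gave 2 gained and 4 lost regions over both lists. Erythroid factors had 1 gained (1.52%) and 2 lost (3.03%) of 66 regions. The gained one lay in *Foxo3*, a factor of the oxidative stress response (2932 and 3949 bp after 6 h), and had peaks of 3949 and 3598 bp at 0 h, and of 3863 bp in 1 list at 12 h, so that the absence at 2 h lay between times that held it. The lost ones lay near *Klf3*, a repressor of the Krüppel-like family, and *Nfe2l2*, which encodes NRF2. At *Klf3* the lengths were 1244 and 1216 bp at 0 h, 1538 and 1417 bp after 2 h, and 841 bp in 1 of the 6 later lists. Progenitor and myeloid factors had 1 gained (1.79%) and 2 lost (3.57%) of 56 regions. *Etv6*, an ETS-family repressor, had peaks in all lists but those at 2 h (583 to 1024 bp). Near *Hhex*, a homeobox gene, and inside *Kif11*, 812 and 1317 bp were covered at 2 h and 0 bp in the other 8 lists. Upstream of *Spi1*, which encodes the myeloid factor PU.1, the lengths were 1348 and 1377 bp after 2 h, 1323 and 1348 bp after 12 h, and 1232 bp in 1 list at 24 h, and H3K4me3 covered 1003 to 1378 bp there in all 10 lists. Cell cycle genes had 1 lost of 67 regions (1.49%), near *E2f8*, an atypical E2F factor, with 556 and 490 bp after 2 h and 0 bp elsewhere.

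**Figure D3:**
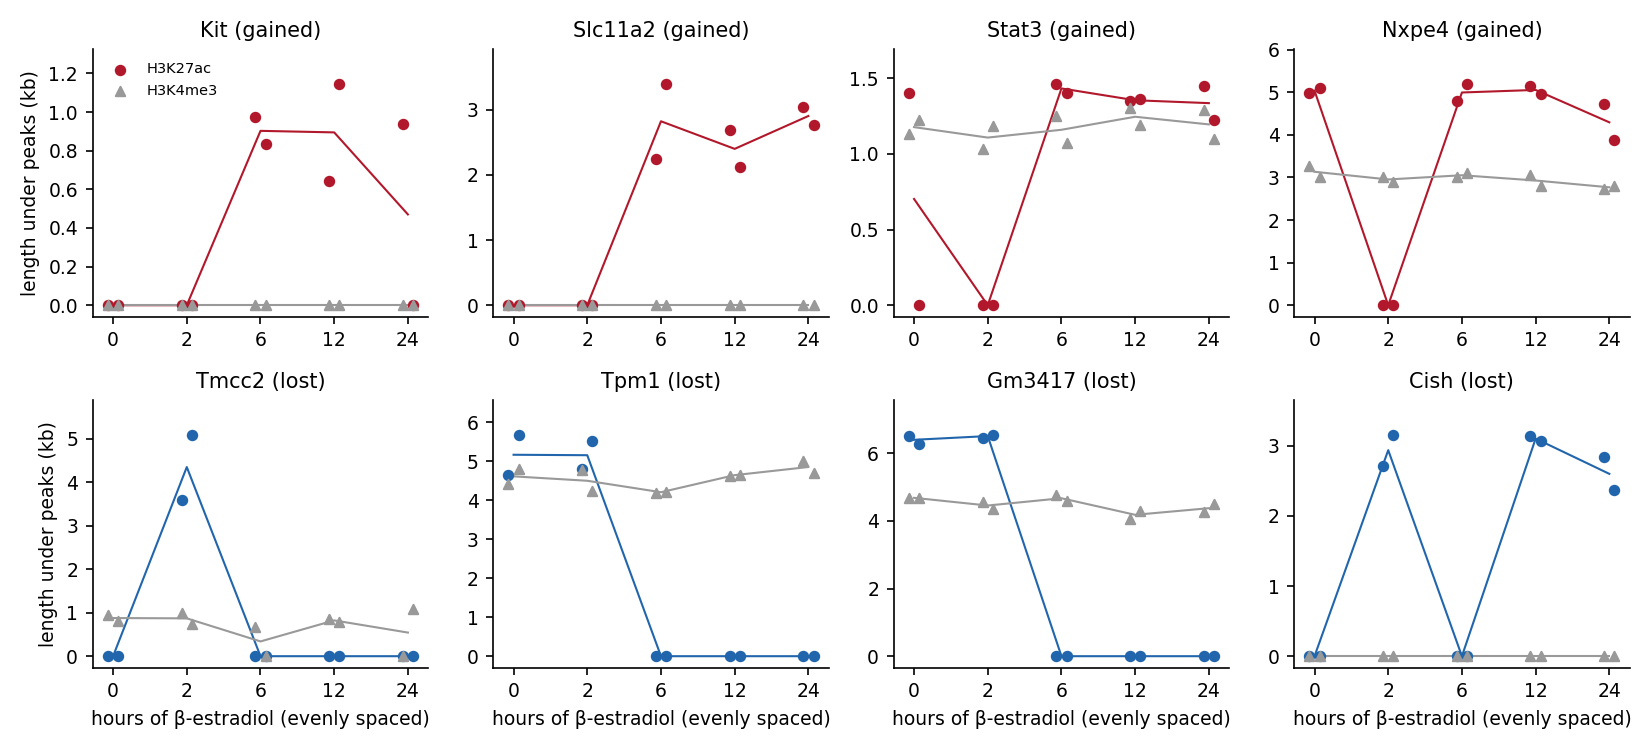
Length under peaks (kb) in 8 named members for H3K27ac (circles, red for gained and blue for lost) and H3K4me3 (grey triangles), against hours of β-estradiol; points are single lists and lines join means of 2 lists. *Slc11a2* is at 0 before 6 h and above 2 kb from 6 h on, *Tpm1* and *Gm3417* are at 0 from 6 h on with H3K4me3 unbroken, and *Nxpe4* and *Cish* leave and return.

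Members were also ranked by score. The 6 gained regions with the highest mean score percentile lay near *Nuggc*, *Nxpe4*, *Ptma*, *Zfp592*, *Cirbp* and *Fam117b* (46.4 to 86.4), and the 6 lost ones near *Tpm1*, *Mrm1*, *Gm3417*, *Khsrp*, *Zfp36l2* and *Gabarap* (57.7 to 73.0). All 12 were 3199 bp or longer, and 9 of them held H3K4me3 in all 10 lists. In *Nuggc*, a nuclear GTPase gene (chromosome 14, 65622062 to 65632052), H3K27ac covered 9876 and 9943 bp after 6 h, 9958 bp in 1 list at 0 h and 0 bp in the other 7 lists, while H3K4me3 covered 7528 to 8220 bp in all 10. At the promoter of *Ptma*, which encodes prothymosin α, the lengths were 7142 and 8158 bp after 6 h, 7163 bp in 1 list at 0 h and 7967 bp in 1 list at 12 h, and H3K4me3 covered 5636 to 5967 bp in all 10. The *Nxpe4* region held 3871 to 5201 bp in all 8 lists except those at 2 h. The region named for *Cirbp*, a cold-inducible RNA-binding protein gene, lay inside its neighbour *Midn* and had 4823 and 5051 bp after 6 h, 0 bp at 0 h and 12 h, and 2222 and 4325 bp after 24 h, and was called longer at 24 h against 0 h (log2 difference of 4.05 with SE 0.36, limma adjusted p = 0.0071).

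Some lost regions of high score had no peak in any list from 6 h on, which does not show that the mark itself was lost. At the promoter of *Tpm1*, a tropomyosin gene (chromosome 9, 67038843 to 67044739), H3K27ac covered 4648 and 5684 bp at 0 h, 4792 and 5517 bp after 2 h, and 0 bp in all 6 later lists, whereas H3K4me3 covered 4188 to 5004 bp throughout. The difference of 24 h minus 0 h was -4.74 (SE 0.18, limma adjusted p = 0.0015). The promoter of *Khsrp*, a splicing and mRNA decay factor, held 3055 and 2277 bp at 0 h, 2699 and 3902 bp after 2 h and 0 bp later (log2 difference of -3.83 with SE 0.22, limma adjusted p = 0.0026), with 2449 to 2809 bp of H3K4me3 in all lists. The region 9833 bp from *Gm3417*, a predicted gene, lay inside *9030025P20Rik* and held 6519 and 6285 bp at 0 h, 6468 and 6557 bp after 2 h and 0 bp later (-5.05, SE 0.15, limma adjusted p = 0.0010). *Gabarap*, an autophagy gene of the ATG8 family, behaved otherwise, with 0 bp at 0 h, 3368 and 3352 bp after 2 h, 0 bp after 6 h, 3325 and 3386 bp after 12 h, and 0 bp after 24 h. H3K4me3 at *Gabarap* covered 2621 to 3031 bp in all 10 lists. The region at the promoter of *Mrm1*, a mitochondrial rRNA methyltransferase gene that overlaps *Dhrs11*, held 2770 and 2677 bp at 0 h, 3142 and 2869 bp after 2 h, 3148 bp in 1 list at 12 h and 0 bp in the other lists. The intergenic region 36761 bp from *Zfp36l2*, an mRNA decay factor, had peaks of 6411 to 6636 bp in 5 of the 10 lists, 1 of them at 12 h and 1 at 24 h.

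Regions with a peak in all 4 lists were not chosen by the contrast of 6 h against 2 h, so their lengths were compared. Limma on log2(covered bp + 200) over all 10 lists, with a mean for each time, called 129 of 18435 regions longer at 6 h (0.700%) and 78 shorter (0.423%). Of these, 106 were gained and 68 lost, which restates the rule. P-values were adjusted over all 18435 regions together, including gained and lost ones whose p the rule made small. An adjusted p of a shared region is therefore not free of the rule. The remaining 23 longer and 10 shorter regions were all among the 15017 shared regions, where 750 and 291 had an unadjusted p under 0.05. In the shared regions called, absolute log2 differences ranged from 0.34 to 1.21 among the longer (median 0.65) and from 0.38 to 1.08 among the shorter (median 0.55). A TSS lay in 14 of the 23 and 6 of the 10. The shared calls depended on the other times entering the fit. When only the 4 lists at 2 h and 6 h were used, limma called 0 and 0, with 500 and 283 at an unadjusted p under 0.05. When only regions in all 4 lists were tested and adjusted, 8 and 4 passed, with 783 and 312 at an unadjusted p under 0.05. With peaks scoring no lower than the median of the 4 lists together, 102 longer and 14 shorter shared regions passed. Shared here refers to the lists before this cutoff, so such a region may hold no peak above it at 2 h or at 6 h. The cutoff lay above the median scores of both 2 h lists and below those of both 6 h lists. Its part in these counts was not tested. Without 1 list, the shared regions called longer rose to 64 (without replicate 1 at 2 h), 112 (without replicate 2 at 2 h) and 36 (without replicate 1 at 6 h), and those called shorter rose to 22, 16 and 31. Without replicate 2 at 6 h they were 24 and 24.

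The 5 longer shared regions with the smallest adjusted p each held 1 peak in every list. In *Ddx19a*, an RNA helicase gene (chromosome 8, 110986291 to 110990751), the peak covered 1991 and 1958 bp after 2 h and 4293 and 4398 bp after 6 h (log2 difference of 1.06 with SE 0.05, limma adjusted p = 0.00033). It was 4125 to 4461 bp long at 0 h, 12 h and 24 h, so that 2 h stood apart. A region inside *Lipc*, the hepatic lipase gene, 95467 bp from the TSS, had the same pattern. It had 3739 ± 148 bp after 2 h and 5615 ± 115 bp after 6 h (mean ± SD, n = 2), and means of 5527 to 5627 bp at the other times. At *Rbm12b2* (chromosome 4, 12086704 to 12091784) the peak was long at 0 h (4713 ± 23.3 bp) and 6 h (4922 ± 225 bp) and short at 2, 12 and 24 h. In *Homer1*, a synaptic scaffold gene (chromosome 13, 93339610 to 93345030), it was long at 6 h (5361 ± 12.0 bp) and 24 h (5116 ± 432 bp) and 2214 ± 151 bp after 2 h, and as short at 0 h and 12 h. Of the 5, only *Fryl* (chromosome 5, 73187891 to 73195674) was short at both early times and long from 6 h on, with 4614 and 4845 bp after 2 h, 7555 and 7540 bp after 6 h, and 7388 to 7596 bp in the 4 later lists (log2 difference of 0.65 with SE 0.05, limma adjusted p = 0.0037).

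The 5 shorter shared regions also held a single peak in every list. When only shared regions were tested and adjusted, 4 shorter regions passed, so not all 5 described here did. At the promoter of *Fam69a* (chromosome 5, 107983253 to 107989004) the lengths were 5695 and 5344 bp after 2 h and 2520 and 2498 bp after 6 h (log2 difference of -1.08 with SE 0.07, limma adjusted p = 0.0011), and means lay from 2919 to 3059 bp at 0, 12 and 24 h. An intergenic region 58892 bp from *Cpeb4*, a translational regulator of erythroid maturation, had 3908 ± 117 bp after 2 h, 1772 ± 47.4 bp after 6 h, and 3939 ± 46.7 bp after 12 h. In *Klf13*, nearest to the TSS of *E030018B13Rik*, the length alternated, with 3402 ± 111 bp after 2 h, 2187 ± 151 bp after 6 h, 3362 ± 68.6 bp after 12 h and 2269 ± 2.83 bp after 24 h. The promoters of *4931414P19Rik* and *D030056L22Rik* were short at 6 h (3037 ± 70.7 and 3615 ± 72.1 bp) and near their 2 h lengths again at 12 h and 24 h. Of the 5, only *Fam69a* stayed short at both 12 h and 24 h, and it was short at 0 h too.

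**Figure D4:**
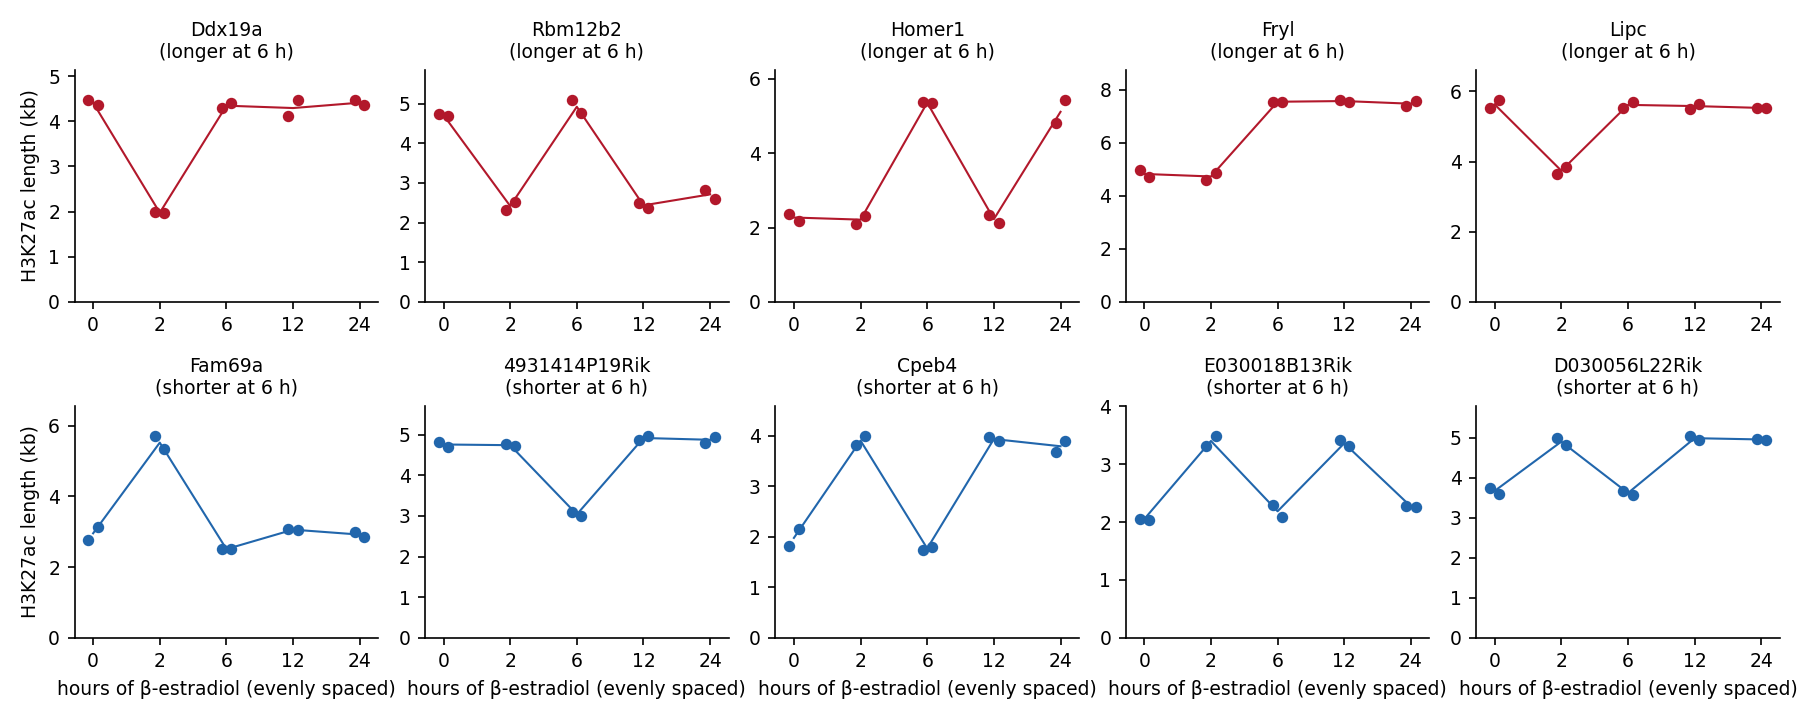
H3K27ac length (kb) in the 10 shared regions with the smallest adjusted p, 5 longer (red, top) and 5 shorter (blue, bottom) at 6 h than at 2 h, against hours of β-estradiol; points are single lists and lines join means of 2 lists. Replicates lie close together, which choosing regions by p favours. In 6 of the 10 the length reached at 6 h is not kept at both 12 h and 24 h.

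Finally, sequence was compared in GRCm38, on both strands. GATA hexamers (AGATAA, with T allowed as the first base and G as the last) occurred 2.43 times per kb in gained and 2.37 times per kb in lost regions, with 2.41 in the other variable regions and 1.94 in regions in all 4 lists. The difference from shared regions was smaller away from promoters. Over regions without a TSS the values were 2.57 for gained, 2.63 for lost, 2.62 for other variable and 2.42 for shared regions, with a GC content of 45.9%, 45.3%, 45.3% and 45.3%. In a window of 300 bp around the midpoint, so that lengths are equal, a hexamer occurred in 53.0% of gained, 52.1% of lost, 50.8% of other variable and 51.9% of shared regions without a TSS, and in 51.5% of all such regions. The composite of CTG and GATAA, which can overlap a hexamer, occurred in 2.46% (9 of 366), 2.30% (5 of 217), 1.85% and 2.70% of these windows. Of other motifs, the KLF motif CCACACCC was found in 3.28% of gained and 4.61% of lost windows (3.10% of all), the AP-1 motif TGANTCA in 9.56% and 12.9% (11.1% of all), the RUNX motif TGTGGT in 20.5% and 21.2% (22.3% of all), and the ETS motif AGGAAG in 32.8% and 32.3% (37.9% of all). Hexamer matches were thus about as frequent in gained and lost regions as in the rest. A match is a description of the letters and no measure of binding.

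**Figure D5:**
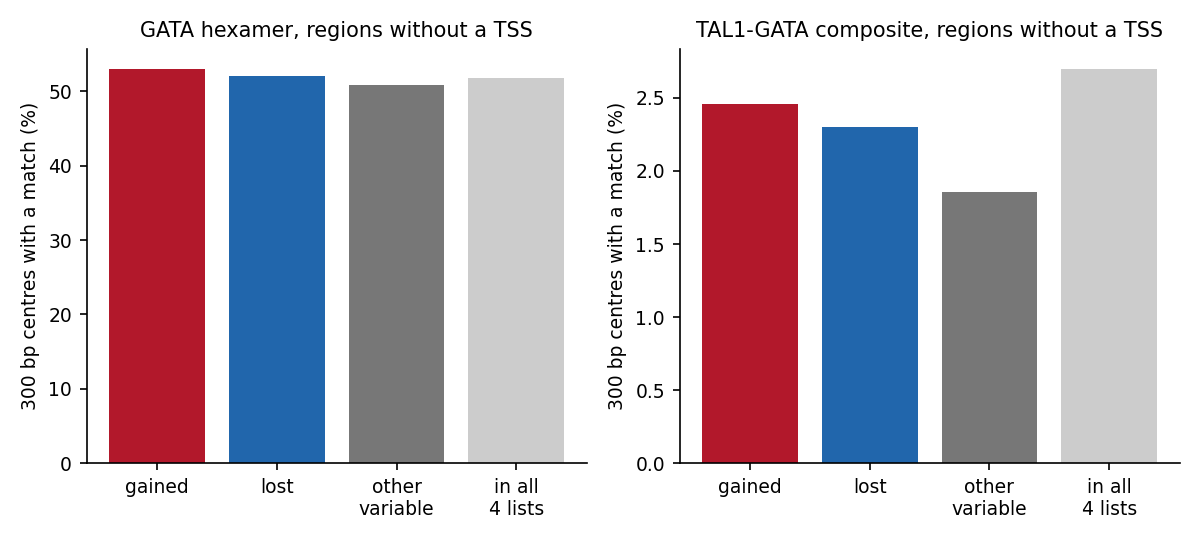
Share of 300 bp windows (%) around the midpoint of regions without a TSS that hold a GATA hexamer (left) or the TAL1-GATA composite (right), for gained, lost, other variable and shared regions. Hexamer shares lie between 50.8% and 53.0%, and composite shares between 1.85% and 2.70%, from 9 gained and 5 lost windows.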

How the data were processed

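H3K27ac, H3K4me3 and CTCF peak lists of G1ER cells were used as deposited, 22 in all. Reads of the histone marks had been aligned by the authors to mm10 (Bowtie2, default settings) and filtered to unique reads, and MACS without its model step had called peaks per library. The MACS version, threshold and control are not given in the sources used here. Each deposited peak has a score written by the caller, which served to rank peaks within a list and, in alternatives, to filter them. The labels name a human build, whereas positions fit GRCm38. Depth is unknown, so no counting precision follows from it.

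Lists were merged where peaks touched, and overlap meant at least 1 bp. Regions were annotated with protein-coding TSSs of GENCODE M21 (any transcript) and named by the nearest TSS. Gained and lost regions were named only within 50 kb, and shared regions without that limit. Named were the 6 gained and 6 lost regions of highest mean score percentile, every member nearest to a gene of 11 lists (10 of 13 globin, 31 of 32 cytokine and 41 of 42 captured genes matched, and all genes of the other 8 lists), and the 5 longer and 5 shorter shared regions with the smallest limma adjusted p. Sequences were read from RefSeq's GRCm38.p6, outside exons. Covered length was tested with limma (eBayes with trend, pseudocount 200 bp, peak in at least 2 lists) and checked on simulated data. The simulated noise was normal with a common spread, so lengths that switch on and off were not covered by this check. Shares have 95% Wilson intervals. The members, gene lists and tests were chosen with earlier results of these data known. Software was limma 3.58.1 in R 4.3.3, and pandas 2.3.3, scipy 1.17.1 and pysam 0.24.0 in Python 3.11.15. Some items are not reported here.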

Additional observations from a re-analysis of the deposited data

How the results depend on the processing

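Of 86 alternative values, 54 kept their direction and side of the threshold or stayed within 1.5 times. Peaks scoring no lower than the median of the 4 lists together gave 54 lost regions, 18 regions shorter at 6 h, and 0 gained and 5 lost regions called at 24 h, where only 2 and 8 members could be tested. Testing only regions in all 4 lists gave 8 longer and 4 shorter regions at 6 h. Adjusted together with gained and lost regions, 23 and 10 of the same regions passed, and the cause of the difference was not tested. Fitting only the 4 lists gave 29 and 24. Without single lists, gained regions numbered 804 to 1289 and lost regions 560 to 1004, regions longer at 6 h 141 to 406 and shorter 99 to 208. The trend of lost regions was rho = -0.837 by covered length (exact permutation adjusted p = 0.133) and -0.949 without any 1 list (exact permutation adjusted p = 0.133, with the smallest p that 5 lists allow before adjustment). With a TSS within 2 kb, 14.1% of gained regions counted as promoters. GATA hexamers per kb were 2.73 and 2.91 in windows of 300 bp of gained and lost regions. Regions under 6 kb only, an alternative chosen after seeing the data, gave 384 gained and 221 lost regions.

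Replicate numbers did not pair the lists. The differences of replicate 1 minus replicate 2 correlated by -0.0141 between 2 h and 6 h, and by -0.0213 to 0.0201 over the 10 pairs of times, of which 7 were negative. With a replicate block, limma called 73 regions longer and 34 shorter at 6 h, and 40 gained and 18 lost regions at 24 h against 0 h. The unknown depth, the low scores of most members and the upper limit of peak length bound what a missing peak can show.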

Other observations

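Several genes had 2 members within 50 kb of a nearest TSS. Both regions were gained at *Aqp9*, *Dio1*, *Nfia*, *Nrf1*, *Sec61a1*, *Sipa1l1*, *Socs5* and *Tle3*, and both were lost at *Nfkb1*, the gene of an NF-κB subunit. At *Bach2*, *Cep152*, *H2al1o*, *Itsn2*, *Kdm2a* and *Zmynd8*, 1 region was gained and 1 lost. No gene had more than 2 members.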
